A study of Homo sapiens with 12 samples.

Results

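APOBEC3 genes encode cytidine deaminases, enzymes that turn cytosine into uracil in single-stranded DNA. The genes described are APOBEC3A, APOBEC3B, APOBEC3C, APOBEC3D, APOBEC3F, APOBEC3G and APOBEC3H, chosen by gene name. Of these 7, 6 were followed among the 26318 genes of the deposited table. APOBEC3A was not analysed here because the counts read held no row for it. Filtering on low counts left 5 of the 6 in the test, which covered 16437 genes, and APOBEC3H is given by its counts. The data are poly(A) RNA sequencing of TMD8, an established lymphoma line of activated B cell type, from pellets taken at 24 h. There were 6 libraries of cells with a short hairpin RNA (shRNA) against IRF4 and 6 libraries of control cells with a scramble shRNA, and both groups thus carried a hairpin. The hairpin sequences, their number and the vector are not given in the sources used here, and 1 sample characteristic numbered the cell line upward while all titles said TMD8. Library names also held a number 1 or 2 of unstated meaning, and the 3 IRF4 shRNA and 3 control libraries under each number are called library series 1 and 2.

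As background, APOBEC3 enzymes act as restriction factors: packaged into retroviral particles or present in the infected cell, they deaminate viral complementary DNA, and several also restrain endogenous retroelements. In humans the genes lie side by side on chromosome 22 and arose by duplication. APOBEC3A, APOBEC3C and APOBEC3H have a single zinc-coordinating deaminase domain, and APOBEC3B, APOBEC3D, APOBEC3F and APOBEC3G have a tandem pair. Several are interferon-inducible in some cell types, and APOBEC3B, which is largely nuclear, is known as a source of mutations in tumours.

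The libraries held 31.3 to 38.2 M counts (M, 1e6 counts), so 3 counts corresponded to 0.0786 to 0.0959 counts per 1e6 (CPM). IRF4 itself averaged 610 ± 101 CPM in IRF4 shRNA libraries and 1480 ± 55.9 CPM in controls (SD, n = 6 each), or -1.28 on the log2 scale (SE 0.09, edgeR adjusted p = 1.41e-08). In IRF4 shRNA libraries it was lower in series 1 (507 to 526 CPM) than in series 2 (688 to 715 CPM). All 6 B cell markers examined were above 1 CPM in TMD8, and their summed level was 6474 to 6809 CPM with IRF4 shRNA and 4526 to 5110 CPM in controls. The 4 T and NK cell markers examined summed to between 0 and 0.0613 CPM with IRF4 shRNA and to 0 CPM in controls, with KLRD1 at 0 throughout. The 6 myeloid markers examined summed to 1.44 to 1.93 CPM with IRF4 shRNA and 0.445 to 1.16 CPM in controls, with MPO at 0. The part of the B cell and myeloid marker shifts in the results below was not tested. In such bulk samples, fewer expressing cells and less RNA per cell cannot be told apart.

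The 6 genes span 122 kb of chromosome 22 (hg38), from APOBEC3B at 38982347 to the end of APOBEC3H at 39104067, all on the plus strand. Because they are near-identical in places, the transcripts were compared in stretches of 100 bases, the read length. In GENCODE release 29, 25.1% of the 2085 distinct stretches of APOBEC3B transcripts also occurred in another gene of the set. APOBEC3A held 18.8% of them, so reads from these stretches cannot be told apart between APOBEC3A and APOBEC3B. APOBEC3F shared 13.3% of its stretches, mainly with APOBEC3G, and APOBEC3G shared 5.05%. APOBEC3D shared 80.2%, nearly all with AL022318.4, a gene model that overlaps APOBEC3C and APOBEC3D and whose own 2022 stretches were 100% contained in APOBEC3D. Without that model the share of APOBEC3D was 8.73%. APOBEC3C and APOBEC3H shared 0 stretches.

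The deposited counts differed in how often they were whole. Those of APOBEC3C and APOBEC3H were whole numbers, to within 0.01, in 12 of 12 libraries. APOBEC3B was whole in 3 libraries and APOBEC3G in 1. APOBEC3D and APOBEC3F were whole in 0 libraries. The sources used here do not say how fractional counts arose, and genes outside the family had them too, IRF4 being whole in 3 libraries. With their shared stretches, differences between APOBEC3B, APOBEC3D, APOBEC3F and APOBEC3G, and from APOBEC3A, carry an uncertainty that the spread between libraries does not show.

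**Figure D1:**
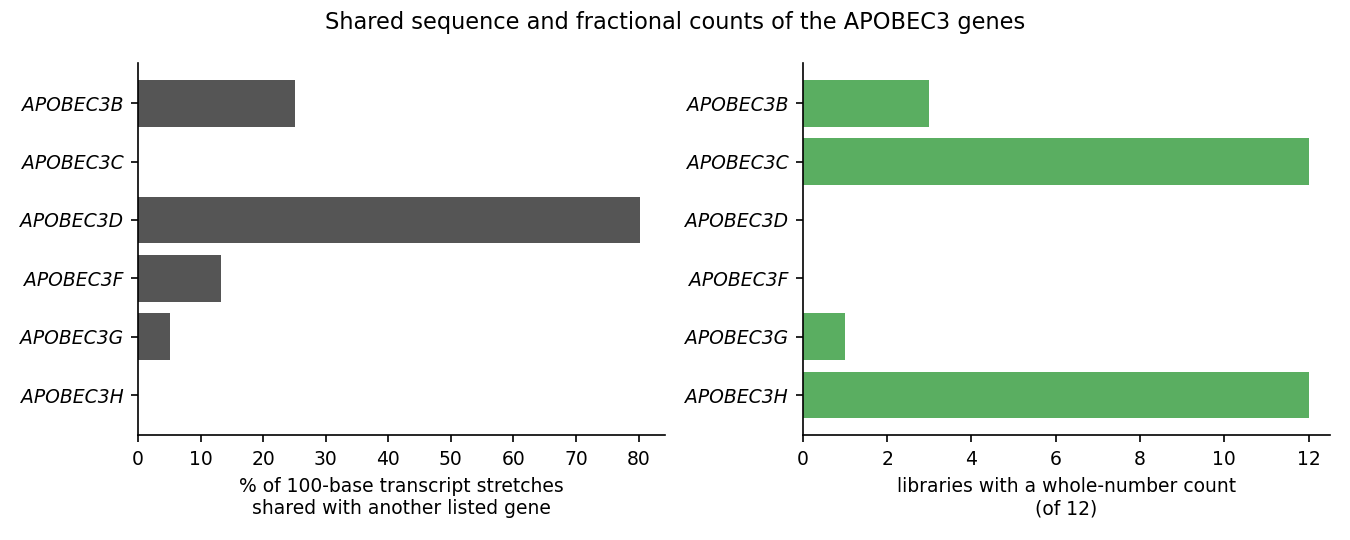
Left, share of the distinct 100-base stretches of each gene's GENCODE transcripts that also occur in another APOBEC3 gene or in AL022318.4 (percent). Right, number of libraries, of 12, in which the deposited count was whole to within 0.01. APOBEC3C and APOBEC3H have no shared stretch and whole counts in all 12 libraries, and APOBEC3D has the largest share, 80.2%.

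APOBEC3C was the most abundant member in both groups when levels were set per length of the principal transcript. It averaged 14.1 ± 0.660 CPM per kb with IRF4 shRNA and 9.61 ± 0.250 CPM per kb in controls (SD, n = 6 each). APOBEC3G followed at 10.4 ± 0.819 CPM per kb with IRF4 shRNA and 8.20 ± 0.493 in controls, and APOBEC3F at 1.63 ± 0.221 with IRF4 shRNA and 0.937 ± 0.0816 in controls. These 3 were apart in every library of a group. APOBEC3B averaged 0.822 ± 0.202 CPM per kb with IRF4 shRNA and 0.278 ± 0.0738 in controls. APOBEC3D averaged 0.796 ± 0.168 CPM per kb with IRF4 shRNA and 0.341 ± 0.0547 in controls. The ranges of this pair overlapped in both groups, so their order is not set by these data. The choice of length matters for APOBEC3G, whose annotated exons together are 5437 bases against 1834 bases in the principal transcript. Per kb of all exons its mean was 3.49 CPM with IRF4 shRNA and 2.77 CPM in controls, still the next after APOBEC3C. The deposited starts of APOBEC3C and APOBEC3G differ from those in GENCODE release 29, so the lengths used may differ from the gene models counted.

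All 5 tested members were higher with IRF4 shRNA. In each of them the lowest IRF4 shRNA library lay above the highest control library, a separation seen upward in 16.2% of all genes tested. By edgeR at an adjusted p under 0.05, 5 of 5 rose, where 24.2% of all genes tested rose and 23.9% fell. The median log2 fold change was 0.80 over these members and -0.01 over all genes tested. Scaling by total counts only gave rises in 63.9% of all calls, against 50.3% with TMM scaling, and moved the median of all genes to 0.07. The members' rises were called under each of the 26 alternatives tried, this one included. P-values measure the spread between these libraries, which may be technical, since the labels do not say whether they came from separate cultures.

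APOBEC3C, the single-domain enzyme, ran from 37.4 to 42.1 CPM with IRF4 shRNA (median 40.1), against 26.1 to 28.3 CPM in controls (median 27.0). It rose 1.47-fold, by 0.56 on the log2 scale (SE 0.04, edgeR adjusted p = 2.61e-08). Its counts were whole numbers and it shared no stretch with its relatives.

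The double-domain member APOBEC3G, the best known human restriction factor against HIV lacking Vif, had the smallest fold change of the tested members. It ran from 17.6 to 21.6 CPM with IRF4 shRNA (median 18.7), against 14.1 to 16.5 CPM in controls (median 14.8). The groups came close without overlapping, and the rise was 1.26-fold (log2 fold change 0.34, SE 0.06, edgeR adjusted p = 3.31e-04). APOBEC3F, which also blocks Vif-deficient HIV, ran from 3.78 to 5.47 CPM with IRF4 shRNA (median 4.23), against 2.35 to 2.85 CPM in controls (median 2.41). It rose 1.74-fold, by 0.80 on the log2 scale (SE 0.10, edgeR adjusted p = 1.21e-05), and its highest library was IRF4 shRNA replicate 6.

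Of the 5 tested members, APOBEC3B and APOBEC3D had the largest fold changes and the lowest levels. APOBEC3B ran from 0.966 to 1.87 CPM with IRF4 shRNA (median 1.57), against 0.294 to 0.713 CPM in controls (median 0.506). That is 323.0 counts over the 6 IRF4 shRNA libraries and 102.3 over the 6 controls. It rose 2.94-fold (log2 fold change 1.56, SE 0.22, edgeR adjusted p = 2.60e-05). APOBEC3D, a weaker restriction factor, ran from 1.38 to 2.39 CPM with IRF4 shRNA (median 2.20), against 0.621 to 1.04 CPM in controls (median 0.873). Its 2 lowest IRF4 shRNA libraries were replicates 1 and 4, at 1.58 and 1.38 CPM. It rose 2.34-fold (log2 fold change 1.22, SE 0.17, edgeR adjusted p = 2.83e-05).

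AL022318.4, whose stretches APOBEC3D contains, was singled out after its values were seen. It received 35.69 estimated counts over the 6 IRF4 shRNA libraries and 1.189 over the controls, and did not pass the filter. With its counts added to APOBEC3D the log2 fold change of that gene was 1.32 (edgeR adjusted p = 8.55e-06). The log2 fold change of AL022318.4 itself, with no filter on low counts, was 4.28, above the 1.22 of APOBEC3D. Adding it could therefore only raise the value of APOBEC3D. IRF4 shRNA replicate 3 alone gave 18.99 of its 35.69 counts.

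**Figure D2:**
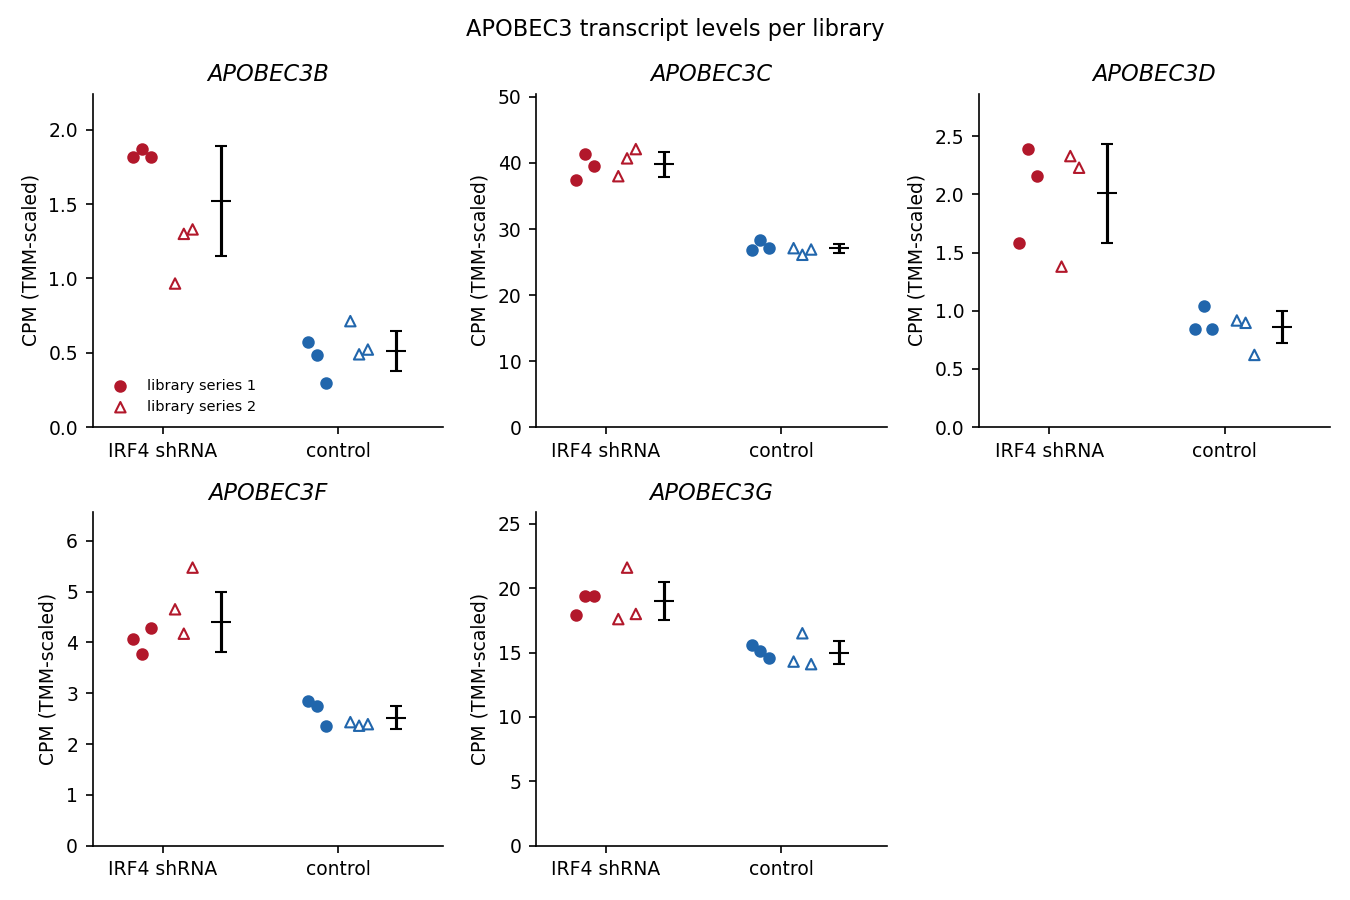
Level of each tested APOBEC3 gene in every library, in CPM on TMM-scaled library sizes, with IRF4 shRNA left and control right. Filled circles are library series 1, open triangles series 2, and bars the mean ± SD of 6 libraries. No IRF4 shRNA library overlaps a control in any of the 5 panels, and APOBEC3B separates by series, with IRF4 shRNA libraries at 1.82 to 1.87 CPM in series 1 and 0.966 to 1.33 CPM in series 2.

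APOBEC3H, a single-domain restriction factor whose stability varies between human alleles, was close to the limit of detection. It had 5, 4, 0, 0, 1 and 2 counts in IRF4 shRNA replicates 1 to 6 and 0 counts in each control. Scaled by depth, the sum of 12 counts lay 3.90-fold above the 3 counts over the control group that a count of 0 allows. The counting error of the 12 counts is not in this value, so it is no lower bound. With no filter on low counts it was called higher by edgeR (adjusted p = 0.0340), a value that rests on these 12 counts.

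APOBEC3H is also the 1 member with a window in the set of RefSeq promoters used here. Its window is shown because its transcript was seen only with IRF4 shRNA. The 250 bases before its start lie at chr22:39096994-39097243 on the plus strand (GRCh38.p14). Capitals mark GAAA, the core that IRF family proteins contact, which was searched on both strands as GAAA and TTTC after the sequence was seen.
APOBEC3H: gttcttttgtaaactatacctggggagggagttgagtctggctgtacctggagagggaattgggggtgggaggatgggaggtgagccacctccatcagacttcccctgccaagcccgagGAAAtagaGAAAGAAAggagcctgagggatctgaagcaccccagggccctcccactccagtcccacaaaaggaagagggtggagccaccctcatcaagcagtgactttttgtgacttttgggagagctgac
The window held 3 matches, all on the plus strand, and 43.6% of the 35116 RefSeq windows held as many or more. Longer motifs were searched on both strands with 50 further bases after the start. The interferon-stimulated response element core, a pair of GAAA with 2 bases between them, occurred in 3.57% of windows, and the ETS-IRF composite, GGAA and then GAAA with the same spacing, in 2.82%; the 2 can overlap. The STAT element TTCNNNGAA occurred in 7.66% and the AP-1 site TGANTCA in 7.71%. None of these 4 was in the APOBEC3H window.

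The contrast was repeated within each library series. All 5 tested members rose in series 1 and all 5 in series 2 (edgeR), where 25.7% and 20.2% of all genes rose. In all 5 the groups did not overlap within either series, which their separation over all libraries already fixed. Within series 1 and 2, 29.7% and 26.0% of all genes tested separated upward in this way. In series 1, APOBEC3B stood at 1.82, 1.87 and 1.82 CPM with IRF4 shRNA, against 0.571, 0.487 and 0.294 CPM in controls, or 1.99 as log2 fold change (SE 0.26, edgeR adjusted p = 5.16e-05). In series 2 it stood at 0.966, 1.30 and 1.33 CPM with IRF4 shRNA, against 0.713, 0.490 and 0.522 CPM in controls, or 1.08 as log2 fold change (SE 0.26, edgeR adjusted p = 0.0105). The IRF4 shRNA libraries of the 2 series did not overlap for this gene, and the share of all genes with such a gap was not taken. IRF4 was lower in series 1 than in series 2, and a link between its level and that of APOBEC3B was not tested.

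The difference between the series did not pass the test for APOBEC3B (series 2 minus series 1 -0.93, SE 0.36, edgeR interaction adjusted p = 0.0974). By edgeR, 0 of 5 members passed in either direction, where 5.07% of all genes tested were higher and 8.97% lower in series 2. At an unadjusted p under 0.05, 1 member passed, APOBEC3B. DESeq2 gave APOBEC3B no adjusted p, and 0 of the other 4 passed with it. APOBEC3F leaned the other way, with log2 fold changes of 0.60 (SE 0.14) in series 1 and 1.0 (SE 0.14) in series 2 and a difference of 0.39 (SE 0.19, edgeR adjusted p = 0.176). APOBEC3C had 0.52 and 0.60, APOBEC3D 1.15 and 1.31, and APOBEC3G 0.32 and 0.36 on the log2 scale, for series 1 and 2.

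The call of APOBEC3G in series 2 (edgeR adjusted p = 0.0290) depended on single libraries. It was lost without IRF4 shRNA replicate 5 (log2 fold change 0.26, adjusted p = 0.119), without IRF4 shRNA replicate 6 (0.40, adjusted p = 0.0552) and without control replicate 6 (0.31, adjusted p = 0.0782). The level in replicate 5 was 21.6 CPM in IRF4 shRNA and 16.5 CPM in control, the highest of each group. Every other series call of a member held when each library was left out in turn.

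**Figure D3:**
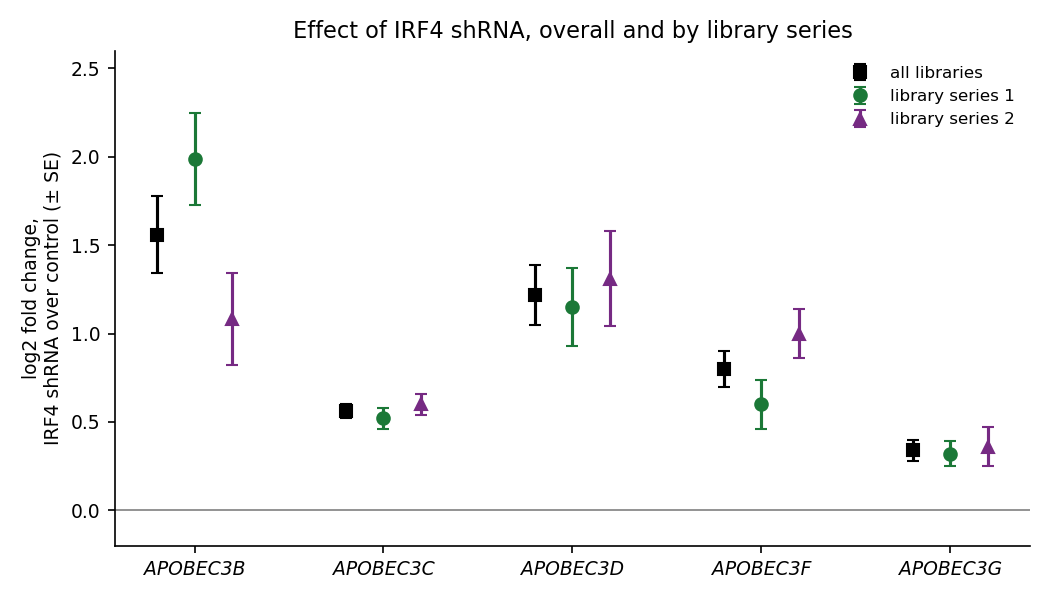
Log2 fold change of IRF4 shRNA over control (± SE, edgeR) for the 5 tested APOBEC3 genes, over all 12 libraries (squares) and within library series 1 (circles) and 2 (triangles). All values are above 0, from 0.32 for APOBEC3G to 1.99 for APOBEC3B, both in series 1.

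The summed level of the 6 genes was 66.8 ± 3.28 CPM with IRF4 shRNA and 46.0 ± 1.13 CPM in controls (SD, n = 6 each), a ratio of 1.45. APOBEC3C made up most of the summed counts in both groups, at 59.6% ± 1.11 with IRF4 shRNA and 58.9% ± 1.62 in controls, with overlapping ranges. The share of APOBEC3G was 28.4% ± 1.54 with IRF4 shRNA (26.0 to 30.8%), below the 32.7% ± 1.59 of controls (31.5 to 35.6%). The share of APOBEC3B was 2.27% ± 0.566 with IRF4 shRNA and 1.12% ± 0.30 in controls, and that of APOBEC3D was 2.99% ± 0.510 with IRF4 shRNA and 1.87% ± 0.267 in controls. Both shares came close between the groups. The range of APOBEC3D began at 2.21% with IRF4 shRNA and ended at 2.19% in controls, just without overlap. That of APOBEC3B began at 1.54% with IRF4 shRNA and ended at 1.57% in controls, just overlapping.

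Genes beside the cluster moved in both directions. The Polycomb genes CBX6 and CBX7, which lie on the 2 sides of it and were picked out after their values were seen, had log2 fold changes of 0.17 (SE 0.09, edgeR adjusted p = 0.142) and 0.18 (SE 0.07, adjusted p = 0.0562). Of 10 tested neighbours in the list, 4 rose and 1 fell (median 0.18), beside 24.2% and 23.9% of all genes tested. Without control replicates 5 and 6, an omission chosen after seeing the data, 7 neighbours rose. MGAT3, a glycosyltransferase gene centred 492 kb past the start of APOBEC3B, rose to 84.5 ± 4.34 CPM with IRF4 shRNA, against 33.9 ± 3.94 CPM in controls. JOSD1 and GTPBP1 rose by 0.41 and 0.27 on the log2 scale. SYNGR1, the other neighbour that rose, was picked out after its value was seen. It rose to 16.2 ± 4.89 CPM with IRF4 shRNA, against 6.96 ± 0.879 CPM in controls. Its log2 fold change was 1.21 (SE 0.17, edgeR adjusted p = 3.67e-05). RPL3, a ribosomal protein gene, fell to 1706 ± 30.3 CPM with IRF4 shRNA, against 3032 ± 52.3 CPM in controls.

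**Figure D4:**
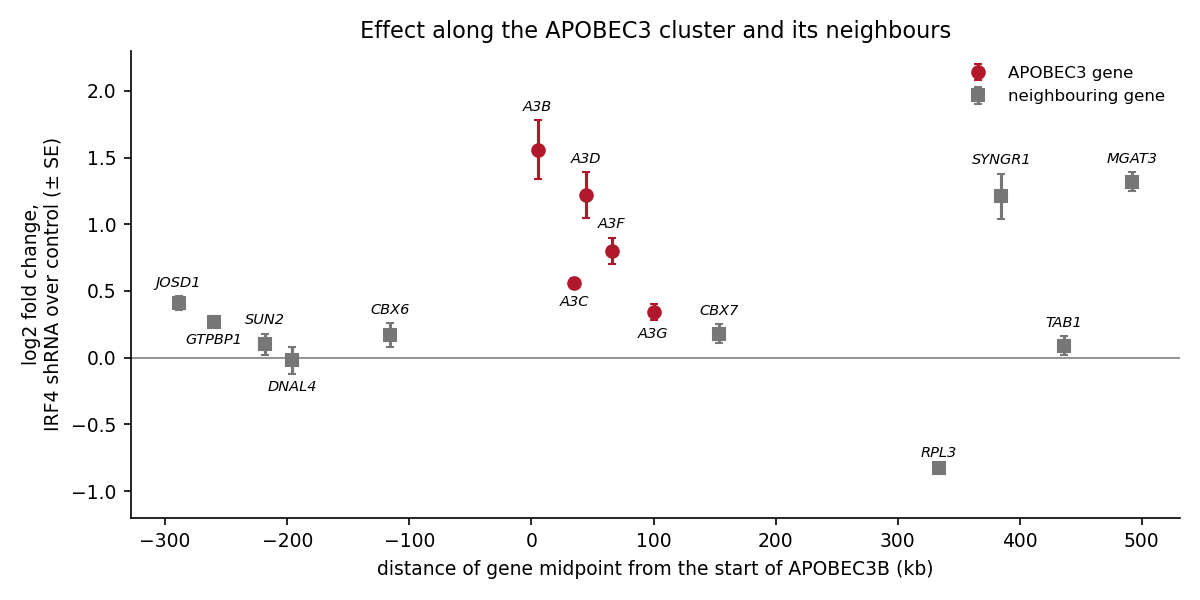
Log2 fold change of IRF4 shRNA over control (± SE, edgeR, all 12 libraries) against the distance of each gene's midpoint from the start of APOBEC3B in kb. Circles are APOBEC3 genes (A3B for APOBEC3B and so on) and squares neighbouring genes. The 5 tested APOBEC3 genes lie between 0.34 and 1.56. The neighbours lie between -0.83 (RPL3) and 1.32 (MGAT3), with CBX6 and CBX7 at 0.17 and 0.18.

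APOBEC2, a relative known from muscle, had 10 counts over 5 IRF4 shRNA libraries and 0 in controls. Scaled by depth, that is 3.25-fold above the 3 counts over the group that a count of 0 allows. The counting error of the 10 counts is not in this value.

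Uracil left by deaminases is removed by base excision repair, and genes of this route moved both ways. Of 13 tested, 6 rose and 6 fell (median log2 fold change 0.03), beside 24.2% and 23.9% of all genes tested. UNG, the main uracil DNA glycosylase, rose 1.64-fold, to 29 ± 1.22 CPM with IRF4 shRNA, against 17.7 ± 1.26 CPM in controls. HMCES, which shields abasic sites in single-stranded DNA, rose 22-fold, to 42.0 ± 10.5 CPM with IRF4 shRNA, against 1.91 ± 0.253 CPM in controls (log2 fold change 4.46, SE 0.17, edgeR adjusted p = 2.36e-11). Its IRF4 shRNA libraries stood at 49.3 to 53.2 CPM in series 1 and 31.8 to 33.6 CPM in series 2. The flap nuclease gene FEN1 rose 1.57-fold, and APEX1, which cuts abasic sites, fell to 177 ± 8.83 CPM with IRF4 shRNA, against 249 ± 8.95 CPM in controls. With counts summed per group and series 3 fell.

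Of 9 mismatch repair and translesion synthesis genes, 3 rose and 2 fell (median 0.09), beside 24.2% and 23.9% of all genes tested. With library size alone 5 rose. The mismatch recognition gene MSH6 rose 1.45-fold, the nuclease gene EXO1 1.5-fold, and REV1, a cytosine-inserting polymerase, 1.19-fold. With counts summed per group and series 0 fell, and REV1 lost its call (edgeR adjusted p = 0.0625). Of 10 other nucleotide and RNA deaminases tested, 4 rose and 2 fell (median -0.01), beside 24.2% and 23.9% of all genes tested. ADAR, the interferon-inducible RNA adenosine deaminase, rose 1.79-fold, to 903 ± 32.4 CPM with IRF4 shRNA, against 503 ± 24.1 CPM in controls. ADA, of adenosine breakdown, rose 1.72-fold, while AMPD3 and the transfer RNA deaminase gene ADAT2 fell by 0.84 and 0.43 on the log2 scale.

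Most other restriction factors rose. Of 17 tested, ADAR among them, 14 rose and 1 fell, beside 24.2% and 23.9% of all genes tested. The median was 0.84, against -0.01 over all genes tested, and with counts summed per group and series 0 fell. MX1, an antiviral GTPase, rose 11.3-fold, to 751 ± 54.0 CPM with IRF4 shRNA, against 66.4 ± 5.81 CPM in controls. BST2, which tethers budding virus, rose 3.18-fold, and the entry inhibitors IFITM1 and IFITM2 rose 8.17- and 4.53-fold, with the caution that IFITM genes are close copies of each other.

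In the signalling route from the interferon receptor to the ISGF3 complex, 6 of the 9 genes followed rose and 1 fell (median 0.47). Of all genes tested, 24.2% rose and 23.9% fell. The complex members STAT2 and IRF9 rose 1.33- and 1.80-fold. USP18, a feedback inhibitor of the receptor, rose 10.3-fold, IRF7 4.01-fold, IRF1 1.91-fold and the kinase gene JAK1 1.38-fold. IFNAR1 fell by 0.18 on the log2 scale (SE 0.05, edgeR adjusted p = 0.00452), a call lost with library size alone (-0.10, edgeR adjusted p = 0.0822) and with counts summed per group and series (-0.17, adjusted p = 0.173). Its fall was called in series 1 (-0.28, edgeR adjusted p = 2.01e-04) and not in series 2 (-0.07, adjusted p = 0.414). IFNAR2 (0.10, SE 0.05, edgeR adjusted p = 0.0998) and TYK2 (0.02, SE 0.08, adjusted p = 0.887) did not pass over all libraries. The value of TYK2 averaged 0.21 in series 1 (edgeR adjusted p = 0.0189) and -0.17 in series 2 (adjusted p = 0.153), and IFNAR2 was called in series 2 (0.22, adjusted p = 0.0279). IFNAR2 passed with library size alone (0.18, edgeR adjusted p = 0.00727), after the GC trend was removed (0.12, adjusted p = 0.0187), and without IRF4 shRNA replicate 1 or 3 (0.13 each, adjusted p = 0.0395 and 0.0383).

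APOBEC3B transcription has been linked to NF-kB and to the B-MYB and DREAM cell cycle complexes in other cells. Of the 5 NF-kB subunit genes 3 rose and 0 fell, beside 24.2% and 23.9% of all genes tested. REL rose 1.80-fold, to 262 ± 16.7 CPM with IRF4 shRNA, against 146 ± 14.1 CPM in controls, while NFKB1 and RELA rose by 0.20 and 0.16 on the log2 scale, calls lost with counts summed per group and series (edgeR adjusted p = 0.121 and 0.204). NFKB1 was called in series 2 (0.32, edgeR adjusted p = 0.00147) and not in series 1 (0.08, adjusted p = 0.197), and RELA in series 1 (0.29, adjusted p = 1.50e-04) and not in series 2 (0.05, adjusted p = 0.607). RELA also lost its call with a replicate block (0.17, adjusted p = 0.0547). RELB, of the non-canonical route, had -0.14 on the log2 scale (SE 0.12, edgeR adjusted p = 0.363) and did not pass, but passed after the GC trend was removed (-0.16, adjusted p = 0.0205) and changed sign without control replicates 5 and 6 (0.08). Of 13 genes of the DREAM and B-MYB list 3 rose and 3 fell (median -0.03), near the 24.2% and 23.9% of all genes tested that rose and fell. MYBL2, which encodes B-MYB, fell to 137 ± 7.49 CPM with IRF4 shRNA, against 198 ± 7.71 CPM in controls, and RBL1 fell by 0.28, while TFDP1 and E2F5 rose by 0.28 and 0.25 on the log2 scale. E2F5 was called in series 2 (0.38, edgeR adjusted p = 0.00601) and not in series 1 (0.12, adjusted p = 0.182). The number that fell was 5 without control replicate 6 and 6 without control replicates 5 and 6, and the number that rose was 5 with library size alone and 1 with counts summed per group and series, where E2F5 lost its call (edgeR adjusted p = 0.0819).

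Likeness of pattern was measured as Pearson's r of log2 CPM over the 12 libraries, among 13833 other genes of mean at least 1 CPM. Since the groups differ in so many genes, high values were common, and 1335 genes had r over 0.9 with APOBEC3C. The 3 nearest to APOBEC3C were UBR7, XPO6 and TAP2 (r = 0.993 each), and those nearest to APOBEC3B were PYGL, CCM2L and PDIA2 (0.973 to 0.977). HACD3, ZNF121 and CPM were nearest to APOBEC3D (0.966 to 0.980), and TCAF1, OTUD1 and TLL2 to APOBEC3F (0.967 to 0.970). APOBEC3G, with the smallest fold change of the tested members, had the fewest genes over 0.9, at 83. Nearest to it were RRM2, a ribonucleotide reductase subunit, PRKAG2 and COQ10A (0.936 to 0.946).

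With the mean of each group and series removed, r describes how single libraries deviated, from 12 libraries that share depth and GC trends. The 2 forms use the same libraries, so a gene that appears in both is no repeat. Of 13833 genes, r was over 0.9 for 3 with APOBEC3B, 6 with APOBEC3C, 4 with APOBEC3D, 2 with APOBEC3F and 0 with APOBEC3G. The 3 highest of so many values can be high without a link between the genes, which was not tested. Nearest to APOBEC3G were IKBIP, RRM2 and PRKAG2 (0.861 to 0.872), and to APOBEC3D ZNF121, BMS1P1 and LSM5 (0.911 to 0.926). For the others the nearest were GTF2IRD2B, AC005332.4 and SLC35A1 (APOBEC3B, 0.905 to 0.943), FDXACB1, AP006621.5 and AC022149.1 (APOBEC3C, 0.936 to 0.957), and DLEU2L, AC010643.1 and ARHGEF33 (APOBEC3F, 0.891 to 0.924). No APOBEC3 gene was among the 3 nearest of another in either form. Between tested members, r over the 12 libraries ran from 0.79 (APOBEC3F and APOBEC3G) to 0.95 (APOBEC3C and APOBEC3D). Their ranks ran from 16 (APOBEC3D for APOBEC3G) to 2121 (APOBEC3G for APOBEC3F). With the means removed, r ran from -0.34 to 0.75 for the same 2 pairs.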

How the data were processed

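The submitters' processing notes name HTSeq, STAR and build hg38, and the annotation, the counting options and whether strand was counted are not given in the sources used here. The deposited table held estimated counts, of which 66.6% were whole to within 1e-06, for 26318 genes in 12 libraries read at 100 bases, with no normalization by the authors. Gene positions come from the deposited table, with ends reduced by 1. Counts were rounded and tested with edgeR 4.0.16 (quasi-likelihood, TMM, filterByExpr with a minimum count of 10, R 4.3.3) over 16437 genes, with Benjamini-Hochberg adjusted p under 0.05 called. The SE is the log2 fold change over the square root of F. Floors cover the counting error of a count of 0 only. The fits were also run on simulated data with far fewer changed genes than were called here. That run cannot show how the scaling behaves with this many changes.

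Members, lists and tests were chosen with earlier results of these data known. Named by rule were all members, APOBEC2, IRF4, the interferon route, up to 4 genes of smallest p per other list and the 3 nearest genes per member. AL022318.4, CBX6, CBX7 and SYNGR1 were named outside this rule. Some genes under this rule are not reported here and are left out of the list counts. Of the 3 near copies and antisense genes listed (APOBEC3A_B, APOBEC3AP1, APOBEC3B-AS1) 0 were analysed, because the counts read held no row for them. Pairs of libraries of a group differed by more than counting error (chi-square over its degrees of freedom 2.83 to 49.2). Transcript lengths, GC content and 100-base stretches come from GENCODE release 29, which covered 94.2% of genes. Promoters come from a set of RefSeq windows (GRCh38.p14), and the set used here held 1 member. Alternatives used DESeq2 1.42.0, other scalings and filters, blocks and omitted libraries.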

Additional observations from a re-analysis of the deposited data

Results flagged for a closer look

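In 84 groups of 6 libraries, 3 held a library far from the others, where chance gives about 5% of groups. The groups cover the members, IRF4, the interferon route and the list genes named by rule. IFNAR2 was lowest in control replicate 5, at 76.1 CPM against 85.4 CPM in the next library. REL was lowest in control replicate 6, at 119 CPM against 144 CPM in the next. GTPBP1 was highest in IRF4 shRNA replicate 1, at 124 CPM against 119 CPM in the next. No APOBEC3 gene had such a library.

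The effect on IRF4 differed between the library series by 0.46 on the log2 scale (series 2 minus series 1, edgeR interaction adjusted p = 0.00110), with the smaller fall in series 2 in 3 of 3 IRF4 shRNA libraries. Among the genes set beside the members, the difference was called for IRF7 (-1.45), STAT2 (0.39), TYK2 (-0.39), REL (0.32) and RELA (-0.26), with edgeR adjusted p from 0.00947 to 0.0397. Control replicates 5 and 6 were the highest controls for IRF7 (24.1 and 28.1 CPM, against at most 16.2 CPM in the other 4), TYK2 and RELA. Without these 2 libraries, an omission chosen after seeing the data, the 5 differences were -0.76, 0.29, -0.18, 0.22 and -0.16 in the same order, and 0 of them were called (edgeR adjusted p from 0.0831 to 0.432, with unadjusted p under 0.05 for 4), while that of IRF4 was 0.48 (adjusted p = 0.00183). It was called for none of the 5 tested APOBEC3 genes by edgeR, where 1 had an unadjusted p under 0.05.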

How the results depend on the processing

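Over all libraries, the log2 fold changes of the members ranged over the 26 alternatives from 1.44 to 1.67 for APOBEC3B, 0.54 to 0.63 for APOBEC3C, 1.13 to 1.33 for APOBEC3D, 0.74 to 0.87 for APOBEC3F and 0.31 to 0.41 for APOBEC3G, and all stayed called. The largest adjusted p of each came with counts summed per group and series (0.00414 to 0.0303), which left 4099 genes called in all, against 7918. The genes whose effect differed between the series numbered 2308, and 1346 after the GC trend was removed, 1322 with the replicate block and 206 without control replicates 5 and 6, an omission added after seeing the data. They ranged from 738 to 5343 with single libraries left out, a shift of over 1.5 times for each library other than control replicate 1. The cause was not tested.

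The replicate numbers of the titles did not pair the libraries (correlations of deviations from -0.26 to 0.13). With the replicate block 6942 genes were called over all libraries. Of the members, IRF4, the interferon route and the list genes named by rule, only RELA lost its call (0.17, edgeR adjusted p = 0.0547). With the library number within each series as a block, APOBEC3G in series 2 had 0.36 (adjusted p = 0.0566). Some values near 0 changed sign. With single libraries left out the series difference ran from -0.02 to 0.34 for APOBEC3D and from -0.08 to 0.10 for APOBEC3G. For APOBEC3D it was -0.05 without control replicates 5 and 6 and -0.0047 with AL022318.4 added. TYK2 had -0.0058 after the GC trend was removed, -0.0062 with the block besides, and with single libraries left out from -0.02 to 0.07. RELB had 0.08 without control replicates 5 and 6. Depth limits APOBEC3H and APOBEC2, seen in 12 and 10 counts.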
